A study of Mus musculus with 32 samples.

Results

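Control endothelial cells were set against control Ito cells of the mouse liver: 4 samples labelled EC (endothelial, control) and 4 labelled IC (Ito, control), 8 of the 32 samples of the series, chosen by their titles and not by any measured value. Both groups came from male Balb/c mice of 6 to 8 weeks whose spleens had received PBS in place of tumor cells. The livers were taken 14 days later by the methods, while a figure legend of the study gives a slightly longer interval. Cells were freed with collagenase, separated on Percoll gradients, with Kupffer cells removed by their adherence to the dish, kept in serum-containing medium and used within 24 hours. The sources describe the samples as biological replicates and do not say how many animals stand behind each, so p-values measure only the spread between these samples. All 8 samples were labelled with Cy3 and lay on 8 arrays of 1 slide of a 2-colour Agilent array of mouse probes, and the other channel of each array held a sample of the tumor microenvironment (TME). Endothelial and Ito samples were never on the same array.

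Liver sinusoidal endothelial cells line the hepatic capillaries, are pierced by fenestrae that let plasma reach the hepatocytes, and take up waste molecules through scavenger receptors such as stabilins, the mannose receptor and Fc gamma receptor IIb. Ito cells, the hepatic stellate cells, lie between that endothelium and the hepatocytes, store vitamin A as retinyl esters in lipid droplets, and turn into contractile, collagen-making myofibroblasts upon injury or in culture. The cell types exchange signals: endothelial endothelin-1 and nitric oxide set the tone of stellate cells, and platelet-derived growth factor, TGF-beta and BMP ligands act in both directions.

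The values below are log2 normalised signals of 1 probe per gene, the brightest over the 8 channels, and every difference is endothelial minus Ito on the log2 scale, so 1 stands for 2-fold and a negative value is higher in Ito. Levels of different probes are not compared. Each probe is 60 bases long. To show what was hybridised, the first 30 bases are given for the 4 marker genes named for this comparison and for 2 genes at each end of it that are described below, with the mm9 coordinates of the whole probe as the array files state them. Capitals mark nothing in these 8 runs.
Stab2 (chr10:86303982-86304041, minus strand): taagcaccaaaggcaaggcttcatcccata
Pecam1 (chr11:106540864-106540923, minus strand): ccccagaacatggatgtagaatacacagaa
Alb (chr5:90901598-90901657, plus strand): gctctgacagttgatgaaacatatgtcccc
Reln (chr5:21404915-21404974, minus strand): taattttgaatcagcaagagtcactgaagc
Dkk3 (chr7:119259556-119259615, minus strand): gcctgtaaatcgcatctgaagataccacag
Id4 (chr13:48358668-48358727, plus strand): tgctaagtagaagagcaatcgtgaatccaa
Apob (chr12:8012697-8012756, plus strand): tctagtgccttgggaccacagatgtctgct
Clec4n (chr6:123196969-123197028, plus strand): gtcttgccctggtttctttctatgaactgc

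Replicates were compared before they were averaged. The typical difference of 2 channels was taken as the median absolute deviation of their log2 differences over 10664 bright probes. The deviation was taken from their median and scaled to match the standard deviation of a normal distribution. Repeated spots of 1 array differed by 0.09 on the same measure. Endothelial replicates 1 and 4 differed by 0.08, and so did replicates 2 and 3, whereas channels of these sets differed by 0.32 to 0.34. Ito replicates 1, 2 and 3 differed from each other by 0.10 to 0.11. Channels of 1 group that differed by less than 0.19, a limit set at 2 times the median spot noise, were counted as 1 sample, which left 2 endothelial profiles (replicates 1 and 4, and replicates 2 and 3) and 2 Ito profiles (replicates 1 to 3, and replicate 4).

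The channel labelled control Ito replicate 4 stood apart from its group. It lay 0.59 to 0.61 from Ito replicates 1 to 3, as far as endothelial channels lay from Ito channels (0.48 to 0.72), but 0.16 from TME Ito replicate 1, 0.23 from TME Ito replicate 3, and 1.09 from TME Ito replicate 2. On the other channel of its own array, the sample labelled TME Ito replicate 4 lay 0.16 to 0.19 from control Ito replicates 1 to 3. The identity of both channels of this array is therefore in doubt, and so is what each value against Ito replicate 4 and each TME contrast stands for. The labels were kept, and channels of different groups were not merged, so these close channels stayed separate profiles in every fit. Of the bright probes, 11.2% were at least 2-fold apart between Ito replicate 4 and replicates 1 to 3, against 1.58% between the endothelial profiles. The main differences are therefore given with every channel or against both Ito profiles, and across all probes the differences against replicates 1 to 3 and against replicate 4 correlated with r = 0.52, a description over probes that share the same endothelial channels.

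**Figure D1:**
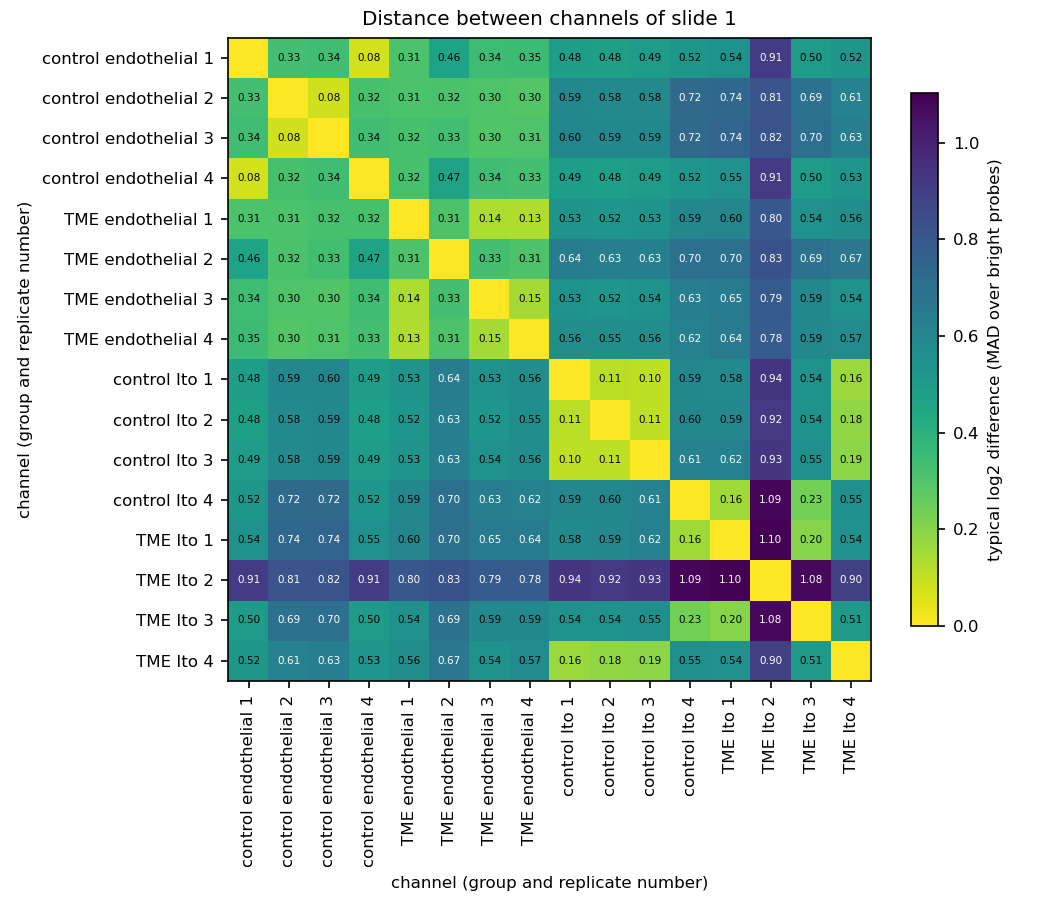
Distance between the 16 channels of control and TME endothelial and Ito cells, with darker cells farther apart. Distance is the scaled median absolute deviation of the log2 differences over bright probes. Control endothelial replicates 1 and 4 and replicates 2 and 3 lie at 0.08, and control Ito replicate 4 lies 0.16 from TME Ito replicate 1 and 0.59 to 0.61 from the other control Ito channels.

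With 2 profiles against 2, limma with Benjamini-Hochberg adjustment called 0 of 55681 probes (0% in each direction) when an adjusted p below 0.05 was required together with a 2-fold difference, and the smallest adjusted p was 0.228. Without adjustment, 1786 probes were at least 2-fold higher in endothelial and 1856 at least 2-fold higher in Ito cells at p under 0.05. An exact permutation test of 2 against 2 cannot go below 0.333. Rules 1 and 2 were therefore used to describe genes, and neither is independent of the other. Rule 1 counts a probe when every endothelial profile was at least 2-fold from every Ito profile, a description without a test: 992 probes (1.78%) lay higher in endothelial and 1237 (2.22%) higher in Ito cells. Rule 2 is a limma fit of all 8 groups of the series, 23 profiles with 15 residual degrees of freedom, at the same threshold: it called 290 probes (0.521%) higher in endothelial and 232 (0.417%) higher in Ito cells, of which 245 and 212 also met rule 1. Fitted with the liver cell groups alone, without the tumor groups, it called 159 and 53. The methods' t-test on these profiles called 0 probes in either direction after adjustment. Rule 2 also draws on the array of control and TME Kupffer replicate 4, whose labels are open to a similar doubt. Control Kupffer replicate 4 lay 0.16 from TME Kupffer replicate 2 and 0.41 from the nearest channel of its own group. TME Kupffer replicate 4 lay 0.15 from control Kupffer replicate 1 and 0.36 from the nearest of its own group. Such pairs, under the 0.19 limit but in different groups, counted as separate profiles. Rule 2 also had no term for the array that control and TME channels shared. Its 15 residual degrees of freedom may therefore be too many, and its adjusted p-values, here and below, too small. Over all probes the median difference was 0.00, and over the 23467 that stood well above background in each of the 8 channels it was 0.08; of these, 577 (2.46%) met rule 1 in favour of endothelial and 782 (3.33%) in favour of Ito cells. Without Ito replicate 4, 2490 probes (4.47%) lay at least 2-fold higher and 2956 (5.31%) at least 2-fold lower in both endothelial profiles. Scaling each channel to its 75th percentile in place of quantile normalization moved the median of all probes to -0.26 and the counts of rule 1 to 833 and 1633, and limma on the profiles then called 272 and 614 probes. With normexp background correction, rule 1 counted 399 and 642, and the difference was smaller by over 1.5 times for 47 of the 139 genes named by the rules, with 0 reversed; Tcf21 then differed by 1.79, Sema6b by 1.80, Abcb11 by -2.41, Dll4 by 1.63, Angpt1 by 0.81, Sec1 by 2.25, Xcl1 by 1.64 and Apol10b by 2.16. Rule 1 also takes in genes that were not well above background in the lower group, for which only a bound holds: of 13 such list members, 12 had a bound under 2-fold (Cdh1, Col8a1, Cps1, Cyp7a1, Fzd6, Gli1, Lef1, Nrarp, Prelp, Sds, Sema3g and Tspan8).

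Of the 4 marker genes, Pecam1 and Alb did not overlap between the groups, while Stab2 and Reln did. With 2 profiles a group this is a description, since the exact permutation test cannot go below 0.333. The share of all probes without overlap is not given. The same holds below wherever every channel of 1 group lay above every channel of the other. Stab2, the stabilin-2 hyaluronan scavenger receptor of sinusoidal endothelium, stood at 10.77, 11.22, 11.29 and 10.69 in endothelial replicates 1 to 4 and at 10.80, 10.67, 10.73 and 11.13 in Ito replicates 1 to 4. These ranges overlapped, with a difference of 0.06 ± 0.33 (SE, n = 2 and 2 profiles), and limma's adjusted p was 0.979. Other probes of Stab2 lay higher in endothelial cells, by 1.46 and 0.85 (1.14 and 0.26 against Ito replicates 1 to 3), so the gene's own probes disagreed on the size.

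Pecam1, the adhesion molecule CD31 of endothelial junctions, read 11.99, 11.90, 11.88 and 11.98 in endothelial cells. In Ito cells it read 11.10, 10.75, 10.82 and 11. The groups did not overlap and the difference was 0.99 ± 0.071 (SE), with 1.05 against Ito replicates 1 to 3 and 0.94 against replicate 4, just short of 2-fold, and limma's adjusted p was 0.248. Reln, the secreted glycoprotein reelin that marks quiescent stellate cells in the liver, stood at 5.66, 6.04, 5.92 and 5.81 in endothelial cells and at 5.97, 5.87, 5.86 and 4.54 in Ito cells. It did not lie higher in Ito cells: the difference was -0.04 against Ito replicates 1 to 3 and 1.31 against replicate 4.

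Alb, the albumin of hepatocytes, showed the widest gap of the 4 genes. In endothelial cells it read 12.81, 13.12, 13.07 and 12.82, and in Ito cells 15.38, 15.71, 15.42 and 17.48. Every Ito channel lay above every endothelial channel, by 2.55 for the mean of replicates 1 to 3 and 4.53 for replicate 4, and limma's adjusted p was 0.306. Albumin is no product of either cell type, so the samples called Ito below are the cells so labelled, and in bulk samples fewer cells of a type and less RNA per cell cannot be told apart.

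**Figure D2:**
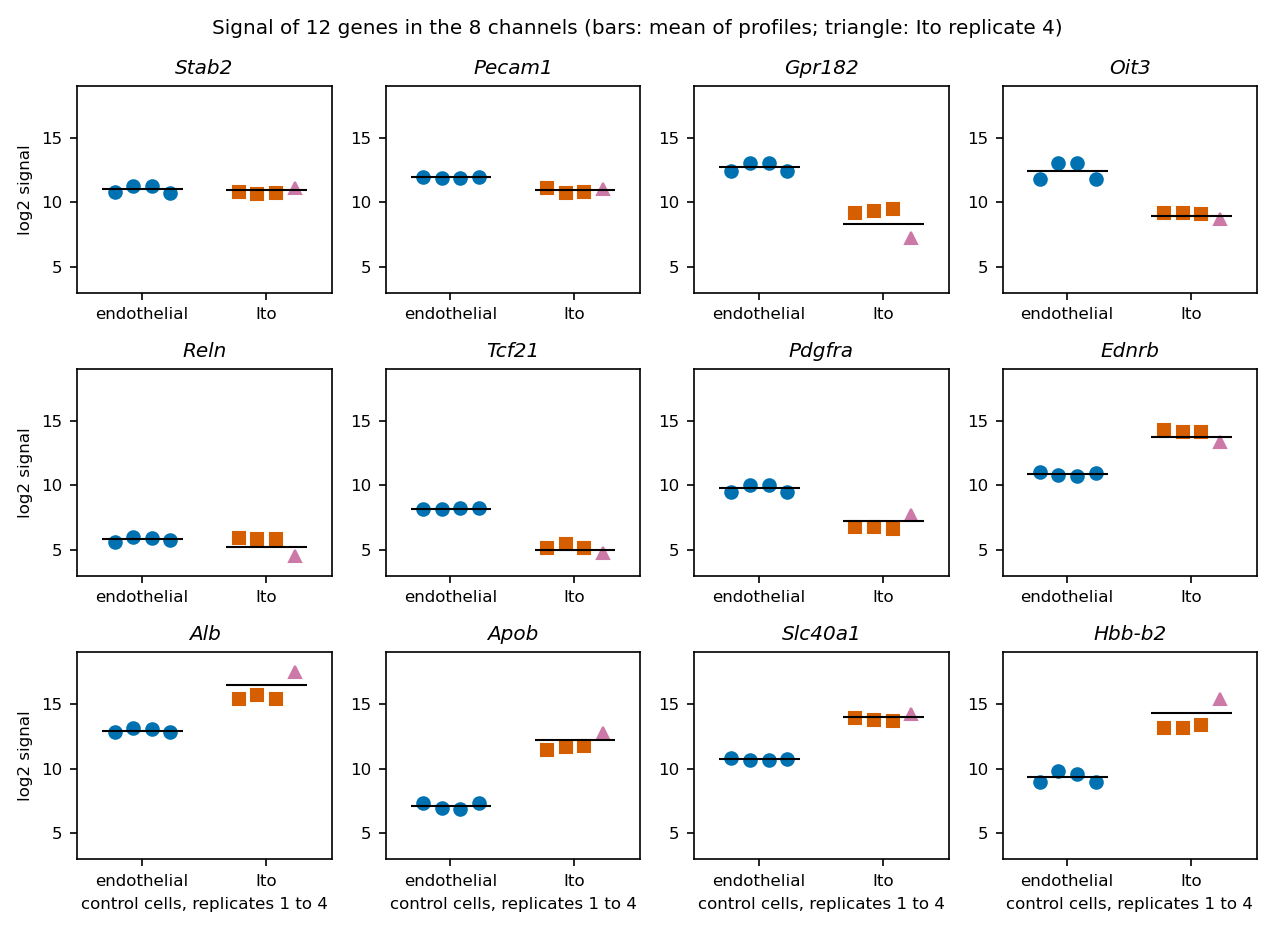
Log2 normalised signal (vertical axis) of 12 genes in the 4 control endothelial channels (circles) and the 4 control Ito channels (squares for replicates 1 to 3, a triangle for replicate 4), with bars at the mean of the profiles of each group. Reln overlapped between the groups and Tcf21 and Pdgfra lay higher in endothelial cells, while Alb read 12.81 to 13.12 in endothelial and 15.38 to 17.48 in Ito channels.

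Genes of sinusoidal endothelium lay higher in the endothelial samples for 8 of the 16 listed, and none lay 2-fold lower. All 16 were well above background on all 8 channels, the median difference was 1.17 (1.06 against Ito replicates 1 to 3 and 1.53 against replicate 4), and rule 2 called none of them. The 8 were Clec4g, Fcgr2b, Mrc1, Oit3, Flt4, Dnase1l3, Gpr182 and Plxnc1. Gpr182, an atypical chemokine receptor of sinusoidal endothelium, read 12.38, 13.07, 13.04 and 12.43 in endothelial cells and 9.19, 9.31, 9.46 and 7.27 in Ito cells, a difference of 4.44 ± 1.08 (SE). Oit3 read 11.79, 13.05, 13.04 and 11.78 against 9.17, 9.16, 9.12 and 8.69, a difference of 3.49. For both genes every endothelial channel lay above every Ito channel, and the endothelial profiles themselves differed, with replicates 2 and 3 the higher.

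Dnase1l3, a secreted nuclease that clears DNA from chromatin, lay between 12.69 and 12.82 in endothelial and between 9.24 and 10.13 in Ito cells. Flt4, the VEGF-C receptor VEGFR-3, lay higher by 2.80, and by 1.56 with normexp background correction. Among the receptors that remove waste from the blood, Mrc1, the mannose receptor, lay higher by 1.99, Clec4g (LSECtin) by 1.86 and Fcgr2b by 1.77. The rest did not separate in this way: Stab1 differed by 0.33 against Ito replicates 1 to 3 and 1.49 against replicate 4, the hyaluronan receptor Lyve1 by -0.59 and 1.27, the VEGF receptor Kdr by 0.36 and 0.31, and F8, coagulation factor VIII, by -0.23 and -0.29.

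Of 17 pan-endothelial genes, 9 lay higher and 1 lower in endothelial cells by rule 1, and 3 and 1 by rule 2; their median difference was 1.74 (1.17 and 1.88 against the separate Ito profiles). Sox18, a transcription factor of vascular and lymphatic endothelium, stood at 8.41, 9.29, 9.32 and 8.46 in endothelial cells and was not well above background in any Ito channel, where it read 2.89, 2.89, 3.25 and 1.87. It was at least 8.01-fold higher, and limma's fit of all groups gave it an adjusted p of 4.9e-06. Such bounds set the bright group against the dimmest signal that counted as well above background on each array.

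Robo4, an endothelial guidance receptor that stabilises vessels, read 13.61, 14.45, 14.47 and 13.52 against 11.23, 11.41, 11.30 and 9.78, and rose above the Ito level by 3.47 ± 0.89 (SE) with an adjusted p of 0.0083 in limma's fit of all groups. Eng, the TGF-beta co-receptor endoglin, read 13.95, 14.75, 14.82 and 14 against 12.26, 12.37, 12.22 and 12, with an adjusted p of 0.030 in the same limma fit. In both, the lowest endothelial channel lay above the highest Ito channel by more than 1. The others that met rule 1 were Tie1, Icam2, Clec14a, Adgrl4, Mmrn2 and Ecscr, with differences between 1.21 and 2.25.

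Several of the most used endothelial genes were also strong in the Ito samples. Cdh5, VE-cadherin, read 13.99 and 13.90 in the endothelial profiles and 13.64 in Ito replicates 1 to 3, a difference of 0.30, and 12.57 in Ito replicate 4. Egfl7, a secreted vessel factor, read 17.36 and 17.72 against 17.26 and 16.01. Mcam, the CD146 antigen that the study stained to judge endothelial purity, gave opposite answers with its 2 probes: the brighter lay higher in Ito cells (14.85, 14.65, 14.46 and 14.90 against 16.07, 16.45, 15.86 and 16.81), while the other was well above background on all 4 endothelial channels and on no Ito channel.

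Of 14 genes of large-vessel endothelium, 2 lay higher by rule 1 (Thbd and Edn1), none lower, and the median difference was 0.43. Against Ito replicates 1 to 3 alone, 5 lay at least 2-fold higher and 1 at least 2-fold lower in endothelial cells, with a median of 0.64. Of all probes, 4.47% lay that far higher and 5.31% that far lower. Thbd, the anticoagulant receptor thrombomodulin, read 12.84, 12.61, 12.58 and 12.84 against 10.73, 10.82, 10.59 and 10.84. Vwf, von Willebrand factor, lay the other way, at 5.15, 5.82, 5.77 and 5.02 against 6.97, 7.06, 7.06 and 6.76, without meeting rule 1. Of the lymphatic genes, 3 of 4 were measured, Prox1 and Mmrn1 were not well above background on any of the 8 channels, and Pdpn differed by -1.15 without meeting rule 1.

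Genes of stellate cells did not lie higher in the Ito samples as a group. Of 25 listed, 7 lay at least 2-fold higher in both endothelial profiles (Pdgfra, Lhx2, Hand2, Tcf21, Angptl6, Cygb and Cxcl12) and 1 lay higher in Ito cells (Ednrb); 22 were well above background on all 8 channels. The median difference was 0.95, with 0.92 against Ito replicates 1 to 3 and 1.08 against replicate 4, beside 0.00 over all probes. Rule 2 called 1 of them, Tcf21, in favour of endothelial cells.

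Tcf21, a transcription factor of the stellate lineage, read 8.18, 8.18, 8.22 and 8.25 in endothelial cells and 5.15, 5.44, 5.17 and 4.78 in Ito cells, and was called with an adjusted p of 0.0056 in limma's fit of all groups. Pdgfra, a receptor of platelet-derived growth factor, read 9.51, 10.04, 10.05 and 9.49 against 6.80, 6.74, 6.60 and 7.74. Cygb, cytoglobin, the oxygen-binding globin of stellate cells, read 10.69 and 11.16 in the endothelial profiles and 8.13 and 9.32 in the Ito profiles. In each of these, the samples labelled endothelial held the higher signal.

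Ednrb, the endothelin B receptor, was the exception, at 11.03, 10.84, 10.76 and 11 in endothelial and 14.29, 14.16, 14.11 and 13.34 in Ito cells; its other probe differed by -2.59 between the groups, against -2.86 here. Lrat, which esterifies retinol for storage, was well above background on 1 endothelial and 2 Ito channels, Gfap on 2 and 3, and Bambi on none. Des, the intermediate filament desmin, differed by 1.77, Hgf, hepatocyte growth factor, by 0.87 (1.36 against Ito replicates 1 to 3), and Dcn, the proteoglycan decorin, by 0.52 (0.92), none of them meeting rule 1.

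Contractile and fibrogenic genes, which myofibroblasts switch on, lay on the same side: 7 of 15 met rule 1 in favour of endothelial cells (Acta2, Tagln, Myl9, Col3a1, Col5a2, Col6a3 and Postn), none the other way, and rule 2 called none. The median difference was 1.70, with 1.81 and 1.25 against the separate Ito profiles, and 0.998 with normexp background correction. Tagln, the actin-binding transgelin, read 15.43, 16.80, 16.89 and 15.41 against 13.43, 13.76, 13.60 and 10.45. Myl9, a myosin light chain, read 9.79, 11.73, 11.67 and 9.83 against 7.91, 7.99, 7.77 and 6.79. In both, endothelial replicates 2 and 3 were the highest channels and Ito replicate 4 the lowest. Acta2, the smooth muscle actin ASMA stained in the study to judge Ito purity, read 8.06 and 9.26 in the endothelial profiles and 6.63 and 6.72 in the Ito profiles, a difference of 1.99.

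**Figure D3:**
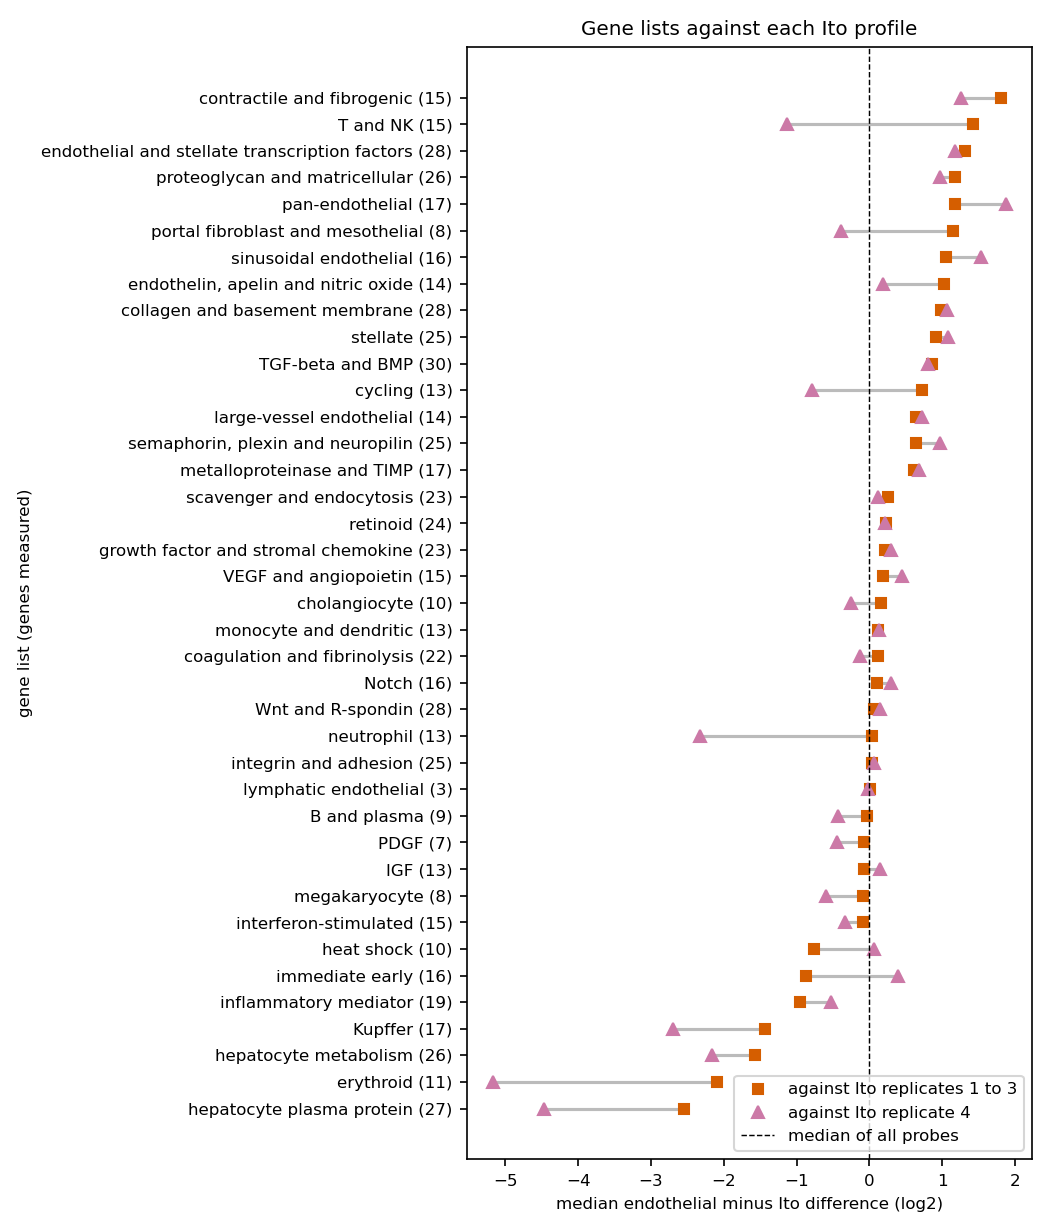
Median endothelial minus Ito difference (log2, horizontal axis) of each gene list against Ito replicates 1 to 3 (squares) and against Ito replicate 4 (triangles), with the number of genes measured in brackets and a dashed line at the median of all probes. Hepatocyte plasma proteins sit at -2.55 and -4.47, and stellate genes at 0.92 and 1.08 on the endothelial side.

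Hepatocyte genes lay on the Ito side. Of 27 plasma proteins, 24 lay at least 2-fold higher in both Ito profiles, none lay higher in endothelial cells, and rule 2 called 8 of them (Apoa1, Apob, Ahsg, F2, Vtn, Plg, Itih1 and Itih2). Their median difference was -3.54, with -2.55 against Ito replicates 1 to 3 and -4.47 against replicate 4, and their mean level was 9.38 to 9.75 over the endothelial channels, 12.01 to 12.16 over Ito replicates 1 to 3 and 13.55 in replicate 4. The 3 that did not meet rule 1 were Apoa2, Hpx and Serpina1b. Probes of the near-identical Serpina1 genes cannot be assigned to a single copy.

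Apob, the protein of very-low-density lipoprotein, read 7.30, 6.93, 6.84 and 7.34 in endothelial and 11.46, 11.70, 11.78 and 12.74 in Ito cells, a difference of -5.09, with an adjusted p of 0.013 in limma's fit of all groups. Ahsg, fetuin-A, read 11.27, 10.97, 11.12 and 11.39 against 14.58, 14.67, 14.69 and 16.11. Plg, plasminogen, read 7.84, 7.16, 7.32 and 7.96 against 11.08, 11.17, 11.23 and 12.62. In each, Ito replicates 1 to 3 lay close together and replicate 4 was the highest channel. Vtn, the adhesive plasma protein vitronectin, differed by -3.85 and had an adjusted p of 0.0011 in the same limma fit.

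Genes of hepatocyte metabolism followed with 13 of 26 by rule 1, 4 by rule 2 (Tat, Sds, Hnf4a and Abcb11) and none in the other direction, with a median difference of -1.78, and -1.01 with normexp background correction. Hnf4a, the nuclear receptor that sets hepatocyte identity, read 5.54 and 5.41 in the endothelial profiles and 7.81 and 9.35 in the Ito profiles. Abcb11, the bile salt export pump, read 4.37, 4.46, 4.30 and 4.50 against 8.0, 8.0, 8.16 and 8.96. Cyp7a1, the rate-limiting enzyme of bile acid synthesis, was not well above background in any endothelial channel and was at least 1.89-fold higher in Ito cells, a bound under the 2-fold of the rules. Some perivenous and periportal enzymes differed less, Cyp2e1 by -1.26, Otc by -0.49 and Cyp3a11 by -0.08 (-1.41, -0.93 and -0.42 against Ito replicates 1 to 3).

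Promoters of Alb and Fgb, whose lists lay on the Ito side, and of Robo4, on the endothelial side, are shown because members of these lists lay together. Sequences are the 250 bases before the annotated start, from RefSeq on GRCm38.p6, which is not the build of the probe coordinates. Capitals mark GTTAAT or its complement ATTAAC, a core of sites of the hepatocyte factor HNF1, in Alb and Fgb, and CAGGAAG, a core of ETS sites, in Robo4. Both strands were searched for each motif.
Alb (chr5:90460620-90460869, plus strand): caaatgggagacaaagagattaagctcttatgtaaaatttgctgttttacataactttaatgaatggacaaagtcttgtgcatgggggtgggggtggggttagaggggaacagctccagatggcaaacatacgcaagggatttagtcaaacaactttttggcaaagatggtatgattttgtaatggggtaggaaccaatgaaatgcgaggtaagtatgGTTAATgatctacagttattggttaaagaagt
Fgb (chr3:83049864-83050113, minus strand): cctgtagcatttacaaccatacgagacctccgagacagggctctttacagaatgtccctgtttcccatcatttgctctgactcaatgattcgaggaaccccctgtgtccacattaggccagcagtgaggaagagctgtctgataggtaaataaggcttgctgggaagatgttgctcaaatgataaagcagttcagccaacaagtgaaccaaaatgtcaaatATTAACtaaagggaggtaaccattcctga
Robo4 (chr9:37401722-37401971, plus strand): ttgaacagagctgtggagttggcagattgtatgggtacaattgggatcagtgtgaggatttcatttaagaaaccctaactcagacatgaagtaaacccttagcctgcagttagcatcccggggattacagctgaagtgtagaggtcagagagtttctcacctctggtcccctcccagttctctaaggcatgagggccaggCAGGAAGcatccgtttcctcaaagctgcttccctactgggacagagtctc

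The match lay 32 bases before the start in Alb, 29 in Fgb and 50 in Robo4. GTTAAT stood in 10 of the 23 plasma protein promoters matched by symbol, of 27 listed, and in 6.43% of all 32851 promoters of this length. It stood in 3 of 22 matched promoters of hepatocyte metabolism, of 26 listed. CAGGAAG stood in 3 of 9 matched pan-endothelial promoters (17 listed) and 2 of 11 sinusoidal promoters (16 listed), against 10.8% of all. AGATAA, a core of GATA sites, stood in 3 of 7 matched erythroid promoters (12 listed), against 9.99% of all. A CArG box (CC and GG around a run of A or T) stood in 1 of 11 contractile and fibrogenic promoters (15 listed), that of Myl9, against 1.47% of all. A match is a description of letters in this window.

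Kupffer cell genes also lay on the Ito side. Of 17, 9 met rule 1 (Clec4f, Vsig4, Adgre1, Marco, C6, Slc40a1, Spic, Csf1r and Cd68), none lay higher in endothelial cells, and rule 2 called Cd68, the lysosomal macrophage antigen that the study stained to detect Kupffer cells. The median difference was -2.07, with -1.43 against Ito replicates 1 to 3 and -2.70 against replicate 4. Slc40a1, the iron exporter ferroportin, read 10.80, 10.68, 10.68 and 10.75 against 13.90, 13.80, 13.69 and 14.24. Spic, the transcription factor of iron-recycling macrophages, read 12.70, 13.37, 13.57 and 12.69 against 15.26, 15.51, 15.40 and 16.61. Complement C1qa, C1qb and C1qc differed little from Ito replicates 1 to 3 (-0.07, -0.27 and 0.01) and by -2.31, -2.40 and -2.03 from replicate 4. Timd4, Cd5l and Folr2 did not meet rule 1.

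Red cell genes lay on the same side, with 6 of 11 measured members by rule 1 (Hba-a1, Hba-a2, Hbb-b1, Hbb-b2, Hbb-bs and Alas2) and 3 by rule 2. The globin probes share sequence among gene copies, so their counts are not independent of each other. Hbb-b2, a beta globin, read 9.0, 9.85, 9.61 and 8.97 in endothelial and 13.17, 13.15, 13.41 and 15.37 in Ito cells. Alas2, which starts haem synthesis in red cell precursors, read 6.05 and 6.23 in the endothelial profiles and 8.23 and 10.08 in the Ito profiles, and the factor gene Klf1 was not well above background on any channel. Ahsp, the alpha globin chaperone, was well above background only in Ito replicate 4.

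Several lists separated the Ito profiles, among them neutrophil, T and NK cell genes. At least 2-fold higher in Ito replicate 4 than in replicates 1 to 3 were also 11 of 17 Kupffer, 9 of 11 red cell and 17 of 27 plasma protein genes. Over all 55681 probes, 4608 (8.28%) were at least 2-fold above and 4396 (7.89%) at least 2-fold below Ito replicates 1 to 3 in replicate 4. Of 13 neutrophil genes, none met rule 1 in either direction, and 10 lay at least 2-fold higher in Ito replicate 4 than in replicates 1 to 3; S100a9 read 8.22 in replicates 1 to 3 and 13.22 in replicate 4, beside 8.81 and 7.74 in the endothelial profiles. Of 15 T and NK cell genes, none met rule 1, and 11 lay at least 2-fold higher in Ito replicate 4 than in replicates 1 to 3. In endothelial cells, 8 lay at least 2-fold higher than in Ito replicates 1 to 3, beside 4.47% of all probes. Gzma, granzyme A, read 11.13 and 10.96 in the endothelial profiles, 7.09 in Ito replicates 1 to 3 and 13.07 in replicate 4. Jchain, the immunoglobulin joining chain, was the 1 of 9 B and plasma cell genes to meet rule 1, at 11.22, 11.07, 11.05 and 11.34 against 8.78, 8.78, 9.01 and 9.70.

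Of the remaining marker lists, none of 13 monocyte and dendritic cell genes met rule 1, 1 of 8 megakaryocyte genes lay higher in Ito cells (Ppbp, platelet basic protein), cholangiocyte genes had 1 on each side of 10 (Tspan8 higher in endothelial, Spp1, osteopontin, higher in Ito cells), and portal fibroblast and mesothelial genes 1 on each side of 8 (Wt1 and Gli1). Signals of hepatocyte, Kupffer and red cell genes moved with the comparison, and their part in the other differences was not tested.

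**Figure D4:**
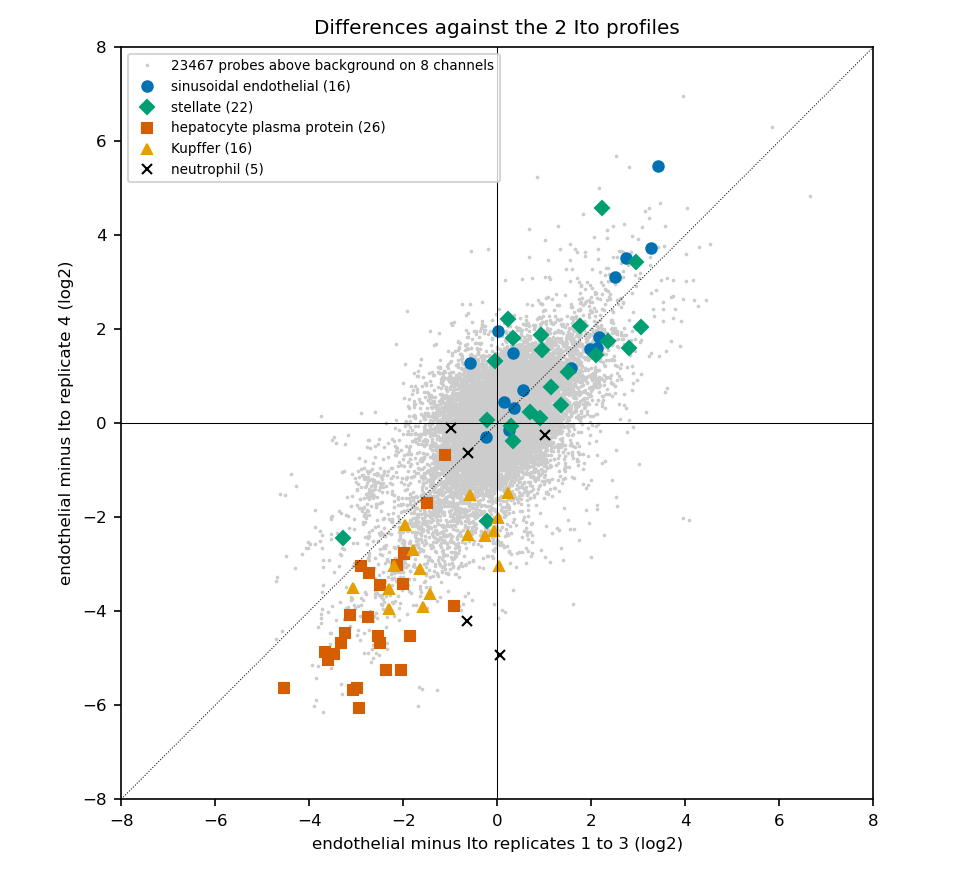
Endothelial minus Ito difference (log2) against Ito replicates 1 to 3 (horizontal) and against Ito replicate 4 (vertical) for 23467 probes well above background on all 8 channels (grey), with 5 marker lists in colour and a dotted line where both are equal. Hepatocyte plasma proteins lie below 0 on both axes, and 2 of the 5 neutrophil genes bright enough to be plotted lie far lower on the vertical than on the horizontal axis.

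Ligands and receptors between the cell types were taken next. In endothelin and nitric oxide signalling, 2 of 14 genes met rule 1 on each side. Edn1, the vasoconstrictor endothelin-1, read 9.60, 10.63, 10.56 and 9.62 in endothelial cells and 7.34, 7.28, 7.29 and 4.66 in Ito cells. Nos3, endothelial nitric oxide synthase, read 11.13, 11.01, 10.93 and 11.11 against 7.36, 7.30, 7.28 and 8.81, and was called with an adjusted p of 0.022 in limma's fit of all groups. Both genes lay higher in every endothelial channel. On the receptor side, Ednrb (above) and Pde5a, the cyclic GMP phosphodiesterase (6.81, 7.61, 7.37 and 7.02 against 9.01, 9.0, 8.96 and 9.32), lay higher in Ito cells, while Ednra, the endothelin A receptor, differed by -0.16 and overlapped between profiles.

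Notch signalling had 3 of 16 genes higher in endothelial cells by both rules, and none lower. Notch4, a Notch receptor of endothelium, read 10.09, 10.34, 10.34 and 10.21 against 8.35, 8.28, 8.07 and 8.25, with an adjusted p of 0.015 in limma's fit of all groups. Its ligand Dll4 read 7.86, 7.0, 6.90 and 7.93 in endothelial cells and was well above background on 1 of the 4 Ito channels. Nrarp, a Notch target that feeds back on the pathway, was not well above background in Ito cells, and its bound was 1.53-fold, under the 2-fold of the rules. The median over the 16 genes was 0.20, 0.10 against Ito replicates 1 to 3, and -0.02 with scaling to the 75th percentile, and 5 genes, Notch3, Jag2, Hes5, Hey2 and Heyl, were not well above background on any channel.

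Of 15 VEGF and angiopoietin genes, 3 lay higher in endothelial cells by rule 1 (Flt4, Angpt1 and Tie1) and none lower. Angpt1, the ligand of the Tie2 receptor, read 6.18, 5.99, 6.17 and 5.88 against 1.98, 2.46, 2.56 and 4.92, and was well above background on 1 Ito channel. Of 7 PDGF genes, Pdgfra lay higher in endothelial cells and the ligand Pdgfc in Ito cells (7.78, 8.26, 8.36 and 7.76 against 9.88, 9.88, 9.92 and 11.19).

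The TGF-beta and BMP list held 8 of 30 genes higher in endothelial cells, 1 in Ito cells (Hamp2, a hepcidin), and a median difference of 0.75. Hamp2 was well above background on 1 endothelial channel and differed by -2.66, and by -0.69 with normexp background correction. Among the ligands of the list, Tgfb2 read 8.90 and 9.93 in the endothelial profiles against 6.88 and 5.89 in the Ito profiles. Bmp4 read 8.56, 9.80, 9.46 and 8.78 against 6.28, 6.96, 6.36 and 6.08. Gdf2, the circulating ligand BMP9, read 10.37, 10.33, 10.29 and 10.37 against 6.66, 6.69, 6.61 and 8.59. These ligands, with Tgfb3 and Bmp10, lay higher in every endothelial channel, although Ito replicate 4 narrowed the gap for Gdf2. The receptor Acvrl1 differed the other way, by -1.33 (-0.69 against Ito replicates 1 to 3), without meeting rule 1. Of the inhibitory SMADs that the pathway induces, Smad6 differed by 2.81 and was called by limma's fit of all groups (adjusted p = 0.0032), and Smad7 by 1.72.

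Of 28 Wnt and R-spondin genes, 4 lay higher in endothelial cells (Fzd4, Fzd6, Dkk3 and Lef1), none lower, and 12 were not well above background on any channel. Dkk3, a secreted dickkopf family protein, read 13.87, 13.27, 13.27 and 13.81 in endothelial and 7.05, 6.83, 6.82 and 8.72 in Ito cells, a difference of 5.75 ± 0.95 (SE); limma's adjusted p was 0.248 for the 2 by 2 profiles and 0.15 for all groups. Rspo3, the R-spondin of central vein endothelium, read 12.92 and 13.11 in the endothelial profiles and 13.17 and 11.72 in the Ito profiles, which overlapped.

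Semaphorin, plexin and neuropilin genes met rule 1 in 5 of 25 cases on the endothelial side (Sema3f, Sema3g, Sema6a, Sema6b and Plxnc1) and 2 on the Ito side (Sema4d and Sema6d). Sema3f, a repulsive guidance ligand, read 12.39, 12.33, 12.43 and 12.42 against 9.0, 9.17, 9.11 and 9.97. Sema6a and Sema6b were called by limma's fit of all groups, with adjusted p of 0.0028 and 0.0098 and differences of 2.58 and 2.73. Growth factors and stromal chemokines had 3 of 23 higher in endothelial (Cxcl12, Ntf3 and Il34) and 1 in Ito cells (Cxcr4). Cxcl12, the stromal chemokine SDF-1, read 15.06, 16.28, 16.44 and 14.95 against 13.36, 13.62, 13.40 and 11.11, and its receptor Cxcr4 read 6.87, 6.61, 6.56 and 7.09 against 9.24, 9.30, 9.23 and 8.66. Cxcl12 and Cxcr4 thus lay on opposite sides. Ackr3, another named gene of this list, differed by 2.61 without meeting rule 1 (4.64 against Ito replicates 1 to 3 and 0.57 against replicate 4). It was well above background on 1 Ito channel. Of 13 IGF genes, Igfbp7 lay higher in endothelial and Igfbp1 and Igfbp2 in Ito cells. Igfbp2 differed by -2.04, and by -0.96 with normexp background correction.

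Retinoid genes did not lie higher in the Ito samples: 4 of 24 met rule 1 on the endothelial side (Aldh1a2, Cyp26b1, Rarb and Rarg) and 1 on the Ito side (Stra6l, a retinol transporter of liver), with a median difference of 0.37, and 0.23 against Ito replicates 1 to 3. Rarb, a retinoic acid receptor that retinoic acid itself induces, read 12.19, 11.47, 11.36 and 12.21 against 7.36, 7.31, 7.20 and 8.0, with an adjusted p of 0.033 in limma's fit of all groups, and of its other probes one lay higher by 4.02 and one was not well above background on any channel. Cyp26b1, which degrades retinoic acid, read 11.62, 9.78, 9.78 and 11.52 against 6.68, 7.26, 7.41 and 6.91. For both, endothelial replicates 1 and 4 were the highest channels. Aldh1a2, which makes retinoic acid, read 9.11, 8.65, 8.63 and 9.11 against 6.84, 7.31, 6.88 and 6.32.

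Of 28 transcription factors of endothelium and stellate cells, 11 lay on the endothelial side by rule 1 and 4 by rule 2 (Sox18, Nr2f2, Tcf21 and Twist1), none on the Ito side by either, and a median difference of 1.24. Nr2f2, the venous factor COUP-TFII, read 9.56, 9.63, 9.70 and 9.47 against 7.27, 7.21, 7.0 and 7.41, with an adjusted p of 0.00020 in limma's fit of all groups. Twist1, a mesenchymal factor, read 8.82, 8.54, 8.46 and 8.71 against 6.18, 5.77, 5.52 and 6.95. Gata4, the factor that directs sinusoidal identity, differed by 0.62, and Ets1 by -0.66 against Ito replicates 1 to 3 and 1.14 against replicate 4.

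In the matrix, 8 of 28 collagen and basement membrane genes lay higher in endothelial cells (Col3a1, Col5a1, Col5a2, Col6a3, Col8a1, Lama5, Nid1 and Hspg2) and none in Ito cells. Col3a1 read 12.32, 12.42, 12.39 and 12.32 against 9.30, 9.45, 9.17 and 11.32, and Col1a1 7.17, 8.54, 8.54 and 7.20 against 5.04, 5.48, 5.20 and 6.61; the latter fell short of rule 1 through Ito replicate 4. Col8a1 was called by limma's fit of all groups (adjusted p = 0.022) and was not well above background in Ito cells, so that its bound was 1.44-fold, under the 2-fold of the rules.

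Of 26 proteoglycan and matricellular genes, 7 lay higher in endothelial cells (Ogn, Prelp, Thbs1, Thbs2, Postn, Spon2 and Ccn2) and 2 in Ito cells (Fn1 and Sdc1), and rule 2 called Gpc3, which was well above background on 1 endothelial and no Ito channel. Ccn2, the connective tissue growth factor, read 14.70, 15.55, 15.98 and 14.71 against 11.09, 11.50, 11.28 and 8.28. Fn1, fibronectin, read 9.91, 9.84, 9.78 and 9.92 against 11.90, 11.91, 11.98 and 13.69, so that Ito replicate 4 lay outermost for both. Among 17 metalloproteinase genes, Mmp2, Adamts2 and Timp3 lay higher in endothelial cells and Mmp13 in Ito cells.

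Of 25 integrin and adhesion genes, Itga1, Icam2 and Jam2 lay higher in endothelial and Cdh1 (a bound under 2-fold) and the brighter probe of Mcam, opposed by its other probe, in Ito cells. Scavenger and endocytosis genes split evenly, 4 of 23 on each side: Scarb2, Mrc1, Fcgr2b and Clec4g in endothelial cells, and Cd36, Marco and the hepatocyte asialoglycoprotein receptor genes Asgr1 and Asgr2 in Ito cells. Of 22 coagulation genes, Thbd, F3 and F2r lay higher in endothelial cells and Procr, F5, F10 and Proc in Ito cells. F2r, the thrombin receptor PAR1, read 14.53, 14.87, 14.90 and 14.47 against 12.42, 12.44, 12.35 and 12.15 (adjusted p = 0.0051 in limma's fit of all groups). Procr, the protein C receptor, read 13.83, 12.94, 12.83 and 13.57 against 16.34, 16.03, 16.00 and 15.72 (adjusted p = 0.020 in the same limma fit).

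Genes of inflammation and stress that met rule 1 lay on the Ito side. Of 19 inflammatory mediators, 5 lay higher in Ito cells (Il1a, Il1b, Ccl3, Ccl4 and Ptgs2) and none in endothelial cells. Ccl3, a macrophage chemokine, read 11.52, 11.71, 11.56 and 11.48 against 14.05, 13.97, 14.10 and 13.89, and Ptgs2, cyclooxygenase-2, read 9.90, 7.68, 7.63 and 9.86 against 12.56, 12.41, 12.45 and 12.21. Ptgs2 alone of these was called by limma's fit of all groups, with an adjusted p of 0.045. Hmox1, which degrades haem, was the 1 of 10 measured heat shock and stress genes to meet rule 1, at 14.25, 13.91, 13.87 and 14.10 against 17.54, 17.23, 17.34 and 16.85, with an adjusted p of 0.0047 in that limma fit.

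None of 16 immediate early genes met rule 1, and 9 lay at least 2-fold lower in Ito replicate 4 than in replicates 1 to 3, beside 7.89% of all probes; Egr1 read 11.24 and 10.76 in the endothelial profiles, 12.92 in Ito replicates 1 to 3 and 8.62 in replicate 4. The median difference was -0.88 against Ito replicates 1 to 3 and 0.39 against replicate 4. None of 15 interferon-stimulated genes met rule 1. Of 13 cycling genes, Mki67 lay higher in Ito cells (6.66, 6.42, 6.60 and 6.40 against 7.81, 7.89, 7.96 and 7.94). Mcm5, a subunit of the replicative helicase, read 9.26, 9.85, 9.84 and 9.16 against 8.18, 8.58, 8.30 and 7.86. Cdc20, an activator of the anaphase-promoting complex, differed by 0.95, and by 0.59 with normexp background correction. Neither Mcm5 nor Cdc20 met rule 1. The median over the list was 0.72 against Ito replicates 1 to 3 and -0.79 against replicate 4. In replicate 4, 7 of the 13 genes lay at least 2-fold higher than in replicates 1 to 3, beside 8.28% of all probes.

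Outside the lists, the largest differences among genes with a symbol, were ranked on the planned fit of the 8 channels as labelled, where limma called 2068 probes (3.71%) higher in endothelial and 1753 (3.15%) higher in Ito cells, because the profiles gave no calls. They included factors and secreted proteins. On the endothelial side Id4, an inhibitor of helix-loop-helix factors, read 12.45, 11.90, 11.89 and 12.47 against 6.56, 6.29, 6.15 and 5.88, a difference of 6.07 ± 0.36 (SE) with an adjusted p of 0.0011 in limma's fit of all groups. Sec1, a fucosyltransferase gene, read 8.54, 8.53, 8.58 and 8.42 against 5.24, 3.71, 3.09 and 4.61. Xcl1, the chemokine lymphotactin, read 6.69, 8.28, 8.42 and 6.46 against 1.97, 2.55, 2.65 and 4.52. Every endothelial channel lay above every Ito channel for these 3 genes; Sec1 was well above background on 2 and Xcl1 on 1 of the 4 Ito channels.

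With the probe used, Exoc3l2 (at least 3.67-fold higher), Disp2 (2.85), Ccm2l (2.83) and Syt4 (2.71) were not well above background in any Ito channel, and these are bounds for that probe. Another probe of Ccm2l, a partner of the cerebral cavernous malformation pathway, was well above background on all 8 channels and differed by 4.31, while such a probe of Exoc3l2 differed by 0.37. Apol10b read 9.67, 8.03, 8.13 and 9.74 against 4.04, 2.90, 2.26 and 6.72, with 1 Ito channel well above background, and its second probe differed by 1.06.

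On the Ito side, Clec4n, the fungal receptor dectin-2, read 9.39, 11.04, 10.76 and 9.44 against 14.73, 14.74, 14.76 and 14.58, and the neighbouring family member Clec4b1 read 5.36, 6.90, 6.78 and 5.49 against 10.90, 10.76, 10.83 and 10.73. The Ito profiles lay close together for these genes, and the endothelial profiles differed by more. Tfr2, the transferrin receptor of hepatocytes that senses iron, read 6.41, 6.01, 2.11 and 6.41 against 9.68, 9.72, 9.73 and 10.46, and was well above background on 3 of the 4 endothelial channels. Tpsb2, a mast cell tryptase, read 6.47, 6.02, 5.93 and 6.69 against 10.36, 11.33, 11.23 and 9.56.

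Dzip1 was not well above background in endothelial cells and at least 7.09-fold higher in Ito cells, but 1 other probe of it that was bright on all 8 channels differed by 0.01. Slc2a2, the glucose transporter of hepatocytes, was at least 3.49-fold higher in Ito cells, Cpn2, a carboxypeptidase subunit of plasma, at least 2.98-fold and Defb45 at least 2.38-fold. Of the 139 genes named by the rules, 37 were called in limma's fit of all groups, and the adjusted p of these 37 lay between 4.9e-06 and 0.398 over the 18 settings in which named genes were refitted.

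The same contrast was formed in the TME cells, which shared the arrays and carried Cy5. For the difference between the control and the TME contrast, limma on the profiles of the 4 groups called 0 of 55681 probes (0% in each direction), with 654 higher and 565 lower in control at an unadjusted p under 0.05. With the 16 channels taken as labelled and the array as a block, it called 78 probes (0.14%) with a higher and 21 (0.0377%) with a lower contrast in control; without the array of Ito replicate 4 these counts were 1717 and 1591. Side by side, the TME contrast was 3.49 for Gpr182, 3.79 for Oit3, 2.72 for Tcf21, -3.22 for Alb, -4.42 for Apob and 0.10 for Reln, beside 4.44, 3.49, 3.19, -3.54, -5.09 and 0.64 in control cells. Edn1 stood at 6.48 in TME and 4.12 in control cells, and Clec4n at -1.84 and -4.50. TME Ito replicate 2 lay 0.90 to 1.10 from the other TME Ito channels, nearest to a control Kupffer channel (0.74), and TME Ito replicate 4 resembled control Ito replicates 1 to 3. Edn1 read 4.66, 7.21, 4.17 and 7.24 in TME Ito replicates 1 to 4, and Clec4n 14.45, 12.29, 14.45 and 14.59. Without TME Ito replicates 2 and 4, the TME contrast was 7.88 for Edn1, -2.34 for Clec4n, 3.60 for Gpr182, 3.22 for Oit3, 3.31 for Tcf21, -4.13 for Alb, -5.58 for Apob and 0.25 for Reln, and without replicate 2 alone Reln turned to -0.28. The contrasts are not shown to be independent, since control Ito replicate 4 and TME Ito replicate 4 each lay close to channels of the other group, and the condition and the dye cannot be told apart.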

How the data were processed

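RNA of each sample was hybridised by the authors to 2-colour Agilent arrays of mouse probes annotated on mm9, and the deposited scanner files hold background-subtracted, dye-normalized processed signal intensity from Feature Extraction; the deposited series table holds processed intensity of the same arrays, and its log2 values correlated with those used here at 0.99986 or more. From the log2 intensity of each sample's own channel, control and outlier spots were left out, spots of a probe averaged, and 32 channels quantile normalized. No spot was saturated, and 46.8 to 57.0% of spots on the 8 channels were well above background; the number of arrays limits the precision.

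Near-identical channels were averaged, so 2 against 2 profiles entered limma 3.58.1 (R 4.3.3) in place of the planned 8 channels, a change made after the data were seen. SEs are those of the profiles, and limma's p-values use its moderated variance. Calls needed an adjusted p (Benjamini-Hochberg) under 0.05 and a 2-fold difference. The fitting functions were tested on simulated data. Recovery of set differences was required only of the 8-channel fit, so the power of the 2 by 2 profile fit was not tested. The grouping of channels was tested there with another spread measure and limit. The members and gene lists were chosen with earlier results of these data known. Of 630 listed genes, 626 were measured. Named genes were the 4 markers, the 12 largest differences in each direction among called probes well above background in the higher group and not overlapping, and up to 4 called members of each list with the largest differences; as the profiles gave no calls, the rule was applied to the 8 channels as labelled. Other list members named in the text were chosen after their values were seen. Promoters came from RefSeq tables, matched by symbol. Both files of an array held the same values and were used once per channel. Alternatives are given in the closing section.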

Additional observations from a re-analysis of the deposited data

Results flagged for a closer look

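Mki67, the antigen Ki-67 of cycling cells, lay on opposite sides of the comparison in control and TME cells. In control cells it read 6.66, 6.42, 6.60 and 6.40 in endothelial and 7.81, 7.89, 7.96 and 7.94 in Ito replicates 1 to 4, a difference of -1.39. In TME cells it read 8.60, 8.62, 8.58 and 8.35 in endothelial and 7.93, 6.23, 7.99 and 7.38 in Ito replicates 1 to 4, a difference of 1.18, so the contrasts differed by -2.58. TME Ito replicate 2, the lowest of these, lay 0.90 to 1.10 from the other TME Ito channels and nearest to a control Kupffer channel, and TME Ito replicate 4 lay close to control Ito replicates 1 to 3. The TME difference was 0.80 without replicate 2 and 0.61 without both. Limma's adjusted p for the difference between the contrasts was 0.99993 on the profiles and 0.0159 on the 16 channels as labelled with the array as a block. In control cells, Mki67 was the 1 of 13 cycling genes to meet rule 1. The median of that list was 0.72 against Ito replicates 1 to 3, the opposite side from Mki67, and -0.79 against replicate 4.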

How the results depend on the processing

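The planned fits took the 8 and the 16 channels as labelled; the averaging into profiles, and the other settings beyond the planned ones, were chosen after seeing the data. Leaving out 1 replicate in turn, limma on the profiles called 0 to 0 probes in either direction, which says nothing about stability with 2 profiles a group (1 Ito profile without Ito replicate 4, assumed to vary like the others), and the probes at least 2-fold apart between every profile numbered 968 to 2490 higher in endothelial and 1215 to 2956 higher in Ito cells, highest without control Ito replicate 4. With normexp background correction 399 and 642 probes were that far apart. Called probes (endothelial, then Ito) were 272 and 614 with 75th percentile scaling, 235 and 389 with dim probes left out, 290 and 232 in the fit of all groups, 312 and 242 in that fit with no minimum fold, 14 and 2 at 0.001 and 4-fold, 159 and 53 with the liver groups, 2068 and 1753 with the 8 channels as labelled, 2948 and 2187 with these without Ito replicate 4, and 9 and 5 with the methods' t-test at its unadjusted threshold, 0 and 0 after adjustment. With the replicate number as a block, the 8 channels gave 1450 and 1234 calls; same-numbered channels correlated at -0.26, 0.24, 0.05 and 0.20, so the numbers do not pair the samples. The control minus TME contrast gave 78 and 21 calls on 16 channels with the array as a block, 61 and 16 without it, and 1717 and 1591 with the block but without the array of Ito replicate 4. Reln, at 0.64, ranged from -0.043 (without Ito replicate 4) to 0.67 (without endothelial replicate 1). Apart from fewer samples in those fits, the cause was not tested. Of the named genes' values under alternatives, 1931 kept direction and side of the threshold, 424 passed it and 1 reversed. The main fit called none of these genes, so keeping the side meant only staying uncalled and does not measure stability. Leaving out any replicate but Ito replicate 4 also kept every profile, through its near-identical channels. Of the passes, 137 came from the 8 channels as labelled, on which these genes were chosen, and 118 from that fit with the replicate block. These counts therefore do not support the calls. The retinoid median was 0.22 with normexp. Scaling to the 75th percentile changed the sign of 7 list medians, and leaving out Ito replicate 4 that of 5, among them neutrophil genes (-1.14 to 0.04) and cycling genes (-0.03 to 0.72). With normexp background correction the median fell in size from 1.70 to 0.998 for contractile, from -1.78 to -1.01 for hepatocyte metabolism, from 0.90 to 0.64 for collagen and from 1.09 to 0.55 for proteoglycan genes. Dim probes have only bounds.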
